A study of Mus musculus with 23 samples.

Results

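The enzymes described here make serine from glucose and hand its carbon to folate. Their genes are *Phgdh*, *Psat1*, *Psph*, *Shmt1*, *Shmt2*, *Mthfd1*, *Mthfd2*, *Mthfd1l* and *Aldh1l2*, chosen by name, and all 9 are present among the 22350 genes counted in RNA-seq, the 22230 counted in Ribo-seq of organoids and the 22314 counted in Ribo-seq of mice. Serine is built from the glycolytic intermediate 3-phosphoglycerate by *Phgdh*, the dehydrogenase that commits carbon to the pathway, *Psat1*, the aminotransferase that adds nitrogen, and *Psph*, the phosphatase that releases serine. The serine hydroxymethyltransferases then move a carbon from serine to tetrahydrofolate, *Shmt1* in the cytosol and *Shmt2* in mitochondria. *Mthfd1* carries that carbon between oxidation states in the cytosol. In mitochondria the oxidation is done by *Mthfd2*, the release as formate by *Mthfd1l*, and the oxidation to carbon dioxide, which yields NADPH, by *Aldh1l2*. The carbon is used for purines, thymidylate and methyl groups, so that dividing cells such as those of the intestinal crypt draw on it. Several of these genes are known targets of the stress-induced transcription factor ATF4, which mTORC1 signalling supports in many cell types.

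Raptor, the product of *Rptor*, is a subunit of mTORC1, the kinase complex that promotes translation, and the study asked what its loss does to intestinal stem cells. All material came from C57BL/6 mice. RNA-seq was made from 3 kinds of organoids, which are epithelial cultures of intestinal crypts. WT organoids had the genotype VillinCre.ERT2.RPL22.HA, with 2 organoid lines and 2 technical libraries per line. *Rptor* fl/fl organoids had the genotype VillinCre.ERT2.Rptor.fl/fl, without the RPL22.HA allele, again with 2 lines and 2 technical libraries per line. Stem cell enriched (SCe) organoids carried the WT genotype and were grown with 10 µM CHIR 99021 and 1.5 mM valproic acid, with 3 libraries. Ribo-seq, which sequences the mRNA fragments protected by ribosomes (footprints), was made from ribosomes pulled down by HA-tagged RPL22. It covered 3 SCe organoid libraries, 3 organoid libraries with floxed *Rptor* and the tag together (VillinCre.ERT2.Rptor.fl/fl.RPL22.HA), and the small intestine of 3 WT mice (Lgr5Cre.ERT2.RPL22.HA) and 3 mice with floxed *Rptor* (Lgr5Cre.ERT2.Rptor.fl/fl.RPL22.HA). Villin-driven Cre acts across the epithelium and *Lgr5*-driven Cre in stem cells, where it also switches on the ribosome tag. The labels call mice and *Rptor* fl/fl organoids untreated, while the methods describe induction of Cre with tamoxifen. No ages are given in the labels. All groups carry an inducible Cre. The labels do not say that lines came from separate animals, so p-values measure the spread between these samples.

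RNA-seq libraries held 23802944 to 67598878 assigned reads, SCe footprint libraries 1106178 to 4242425, the other organoid footprint libraries 5992941 to 8257457 and mouse libraries 772077 to 8238388. Levels are given as CPM, counts scaled to a common library size after TMM normalisation, and comparisons were made with edgeR's quasi-likelihood test with Benjamini-Hochberg adjustment over all genes tested, called at an adjusted p under 0.05. *Rptor* mRNA measured 51.5 and 47.9 CPM in WT, 60.8, 54.0 and 53.7 CPM in SCe and 14.8 and 15.5 CPM in *Rptor* fl/fl organoids (log2 fold change −1.71 against WT, SE 0.0835, adjusted p = 0.00516). *Rptor* footprints were not called lower in organoids (15.2, 41.9 and 21.0 CPM in SCe, 17.3, 18.7 and 16.0 CPM in the libraries of the other genotype, adjusted p = 0.318) nor in mice (adjusted p = 0.15). The organoid footprint samples are therefore named by their label, as the *Rptor*-labelled libraries. SCe replicate 1 stood apart from the other SCe libraries. Its 9 enterocyte markers summed to 358 CPM in RNA-seq against 6230.1 and 7288 CPM in the others, and to 1110 CPM of footprints against 3559.5 and 3805 CPM. In RNA-seq its Paneth markers were lowest (922 against 3465 and 4085 CPM) and its stem cell markers highest (1638 against 855 and 840.1 CPM). In footprints its stem cell markers were lowest (1557 against 2602 and 3063 CPM) and its Paneth markers were not (3978 against 3409 and 5921 CPM). Epithelial markers were high in every library, from 4252 to 17620.1 CPM. In bulk samples, fewer cells of a type and less RNA per cell cannot be told apart.

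On GRCm38, *Phgdh* (ENSMUSG00000053398.11) lies at chr3:98313170-98339990, *Psat1* (ENSMUSG00000024640.9) at chr19:15904678-15947337 and *Psph* (ENSMUSG00000029446.14) at chr5:129765558-129787449, all on the minus strand. *Shmt1* (ENSMUSG00000020534.14) lies at chr11:60788104-60811718 and *Shmt2* (ENSMUSG00000025403.5) at chr10:127517123-127522444, both on the minus strand. *Mthfd1* (ENSMUSG00000021048.7, plus strand) lies at chr12:76255298-76319803, *Mthfd2* (ENSMUSG00000005667.8, minus strand) at chr6:83305691-83325908, *Mthfd1l* (ENSMUSG00000040675.17, plus strand) at chr10:3973118-4167081 and *Aldh1l2* (ENSMUSG00000020256.14, minus strand) at chr10:83487450-83534140. RefSeq promoter windows of GRCm38.p6, from 250 bases before to 50 bases after a transcription start, were found for 8 of the 9 genes, with 2 windows for *Psat1* and none for *Aldh1l2*. The windows of *Phgdh*, *Psat1* and *Mthfd2*, whose mRNA was lower in *Rptor* fl/fl than in SCe organoids, and of *Shmt1*, whose mRNA was higher, are shown. Capitals mark the letters CCAAT on either strand (ATTGG when read on the other strand), the box bound by NF-Y.
Phgdh chr3:98339920-98340219, minus strand: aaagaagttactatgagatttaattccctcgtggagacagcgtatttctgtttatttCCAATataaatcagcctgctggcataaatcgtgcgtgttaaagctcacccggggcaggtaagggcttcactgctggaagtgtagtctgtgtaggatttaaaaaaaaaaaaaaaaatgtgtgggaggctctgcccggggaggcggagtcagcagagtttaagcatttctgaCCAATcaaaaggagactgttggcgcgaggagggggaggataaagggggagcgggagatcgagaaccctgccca
Psat1 chr19:15925010-15925309, minus strand: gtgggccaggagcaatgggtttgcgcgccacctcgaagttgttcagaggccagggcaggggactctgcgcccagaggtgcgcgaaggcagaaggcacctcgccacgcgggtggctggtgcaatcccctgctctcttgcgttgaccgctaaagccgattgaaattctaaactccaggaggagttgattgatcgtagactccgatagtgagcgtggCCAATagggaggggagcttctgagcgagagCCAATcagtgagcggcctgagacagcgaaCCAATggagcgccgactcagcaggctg
Mthfd2 chr6:83317555-83317854, minus strand: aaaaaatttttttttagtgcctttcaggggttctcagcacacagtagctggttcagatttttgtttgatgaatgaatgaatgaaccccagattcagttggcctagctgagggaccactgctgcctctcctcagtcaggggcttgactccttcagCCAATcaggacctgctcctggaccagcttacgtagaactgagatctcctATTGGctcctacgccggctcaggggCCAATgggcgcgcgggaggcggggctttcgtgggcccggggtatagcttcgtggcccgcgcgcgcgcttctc
Shmt1 chr11:60811216-60811515, minus strand: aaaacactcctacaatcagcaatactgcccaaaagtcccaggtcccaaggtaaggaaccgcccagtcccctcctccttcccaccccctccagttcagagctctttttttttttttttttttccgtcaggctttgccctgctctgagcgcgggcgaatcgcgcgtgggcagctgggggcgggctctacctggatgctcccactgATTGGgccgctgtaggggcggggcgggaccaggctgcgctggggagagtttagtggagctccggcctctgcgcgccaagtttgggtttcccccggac
CCAAT was present in 6 of the 9 windows, against 37.4% of 32851 RefSeq windows, with 3 matches each in *Mthfd2* and in the *Psat1* window shown, 2 each in *Phgdh* and *Psph* and 1 each in *Shmt1* and *Mthfd1*. It was therefore found in genes whose mRNA was lower in *Rptor* fl/fl than in SCe organoids and in *Shmt1* and *Mthfd1*, whose mRNA was not. The GC box GGGCGG was present in 5 of 9 windows, against 35.7% of all. The core of C/EBP-ATF elements, TGATGNAA, was found in 0 of 9 windows and the E-box CACGTG in 0 of 9, against 3.97% and 7.15% of all windows. Both strands were searched, and no matches of different motifs overlapped in these 9 windows. A missing match says only that these letters are not in these windows.

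Per length of transcript, WT organoids held most mRNA of *Phgdh* (91.0 ± 5.41 RPKM, the CPM value divided by sequence length in kilobases, SD, n = 2 lines), *Psat1* (87.5 ± 29.9) and *Shmt2* (67.7 ± 7.0), whose ranges overlapped from one to the next. *Mthfd1* (48.1 ± 0.407), *Shmt1* (44.3 ± 3.96) and *Mthfd2* (30.9 ± 4.51) followed without overlap. *Psph* (14.2 ± 1.57) and *Mthfd1l* (14.0 ± 1.75) overlapped each other, and *Aldh1l2* was lowest at 2.72 ± 1.1. In SCe organoids *Psat1* was at the top (178 ± 39.4, n = 3) and its range overlapped that of *Phgdh* (149 ± 26.8). In *Rptor* fl/fl organoids *Psat1* stood at place 5 of the 9 at 35.0 ± 12.1, below the cytosolic *Mthfd1* (49.8 ± 5.16) and *Shmt1* (45.4 ± 0.36), with no overlap of ranges between *Shmt1* and *Psat1*. *Aldh1l2* was lowest in every group.

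In *Rptor* fl/fl organoids against WT, the mRNAs of *Phgdh*, *Psph*, *Mthfd2* and *Aldh1l2* were lower, by 1.69-fold to 4.74-fold. That is 4 of the 9 genes, where 11.0% of all 14131 genes tested were lower, and none was higher, where 11.6% of all were. The median log2 fold change of the 9 genes was −0.75, beside −0.0049 for all genes. The cytosolic folate enzymes *Shmt1* and *Mthfd1* had log2 fold changes of 0.04 and 0.02.

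Of the serine synthesis enzymes, *Phgdh* measured 178 and 165 CPM in WT organoids, compared with 107 and 95.9 CPM in organoids with floxed *Rptor*. Both *Rptor* fl/fl lines were below both WT lines (log2 fold change −0.75, SE 0.0812, adjusted p = 0.0118). *Psat1* stood at 266 and 163 CPM in WT and 107 and 65.2 CPM in *Rptor* fl/fl. The groups did not overlap, but the lines of each genotype differed by over 1.5 times, and the log2 fold change of −1.32 (SE 0.333, adjusted p = 0.0513) just missed the threshold. It passed in 5 of 11 alternatives, DESeq2 among them (adjusted p = 0.036). *Psph*, the least abundant of the serine synthesis mRNAs, stood at 23.6 and 21.9 CPM in WT organoids, compared with 7.14 and 6.91 CPM in *Rptor* fl/fl organoids. Lines of a genotype were close together and the genotypes far apart (log2 fold change −1.69, SE 0.0927, adjusted p = 0.00567).

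**Figure D1:**
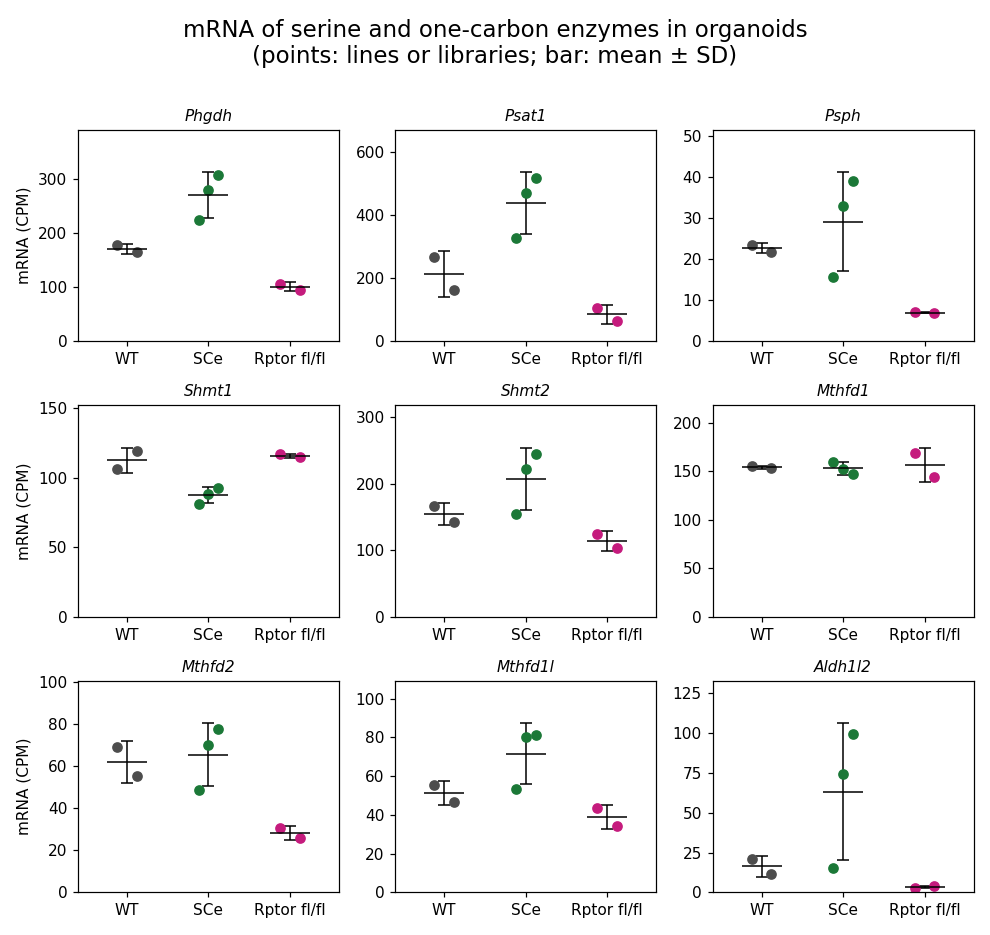
mRNA levels (CPM, linear axes from 0) of the 9 genes in WT, SCe and *Rptor* fl/fl organoids. Points are organoid lines (WT and *Rptor* fl/fl, technical libraries summed) or libraries (SCe), and bars give the mean ± SD. *Rptor* fl/fl points lie lowest for 7 genes, while *Shmt1* and *Mthfd1* do not follow.

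The mitochondrial and cytosolic enzymes of the same step differed in how they compared. *Shmt2* stood at 166 and 143 CPM in WT and 125 and 104 CPM in *Rptor* fl/fl, with a log2 fold change of −0.44 (SE 0.12, adjusted p = 0.0609). *Shmt1* stood at 106 and 119 CPM in WT and 117 and 115 CPM in *Rptor* fl/fl, with a log2 fold change of 0.04 (SE 0.0729, 95% interval −0.15 to 0.23, adjusted p = 0.706). Within each library the ratio of *Shmt2* to *Shmt1* mRNA per length was 1.75 and 1.33 in WT and 1.19 and 1.01 in *Rptor* fl/fl lines. The ratio was thus lower in both *Rptor* fl/fl lines than in either WT line.

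*Mthfd2*, whose product is high in embryonic and dividing cells, stood at 69.1 and 55.1 CPM in WT and 30.6 and 25.9 CPM in *Rptor* fl/fl. The levels did not overlap (log2 fold change −1.14, SE 0.146, adjusted p = 0.0158). Its cytosolic counterpart *Mthfd1* stood at 155 and 153 CPM in WT and 169 and 144 CPM in *Rptor* fl/fl, with the WT lines between the other two (log2 fold change 0.02, SE 0.0913, adjusted p = 0.87). The per-length ratio of *Mthfd2* to *Mthfd1* mRNA was accordingly 0.704 and 0.579 in WT lines and 0.288 and 0.28 in *Rptor* fl/fl lines. *Mthfd1l* stood at 55.6 and 46.7 CPM in WT and 43.3 and 34.4 CPM in *Rptor* fl/fl and was not called (log2 fold change −0.40, SE 0.147, adjusted p = 0.116). *Aldh1l2* had the largest difference of the 9 genes and the lowest level, at 21.1 and 11.7 CPM in WT and 3.02 and 3.88 CPM in *Rptor* fl/fl (log2 fold change −2.24, SE 0.331, adjusted p = 0.0185). Its call was lost without *Rptor* fl/fl line 1 (adjusted p = 0.066) and when SCe organoids joined the fit (adjusted p = 0.141).

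Markers of cell types moved in the same comparison, where 11.0% of all genes were lower and 11.6% higher. Of 6 stem cell markers 5 were lower, of 6 Paneth markers 5 were lower and of 6 goblet markers 4 were higher. Of 5 enteroendocrine markers 2 were lower, of 9 enterocyte markers 2 were lower and of 6 epithelial markers 1 was higher. Of 10 proliferation markers 1 was lower, near the share of all genes. Stem cell markers summed to 3581 and 5147 CPM in WT and to 817 and 2056 CPM in *Rptor* fl/fl lines, while proliferation markers summed to 2246 and 2423 CPM and to 2089 and 2384 CPM. The part of cell composition in the enzyme mRNAs was not tested.

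Against SCe organoids the same mRNAs stood further apart, with the same *Rptor* fl/fl lines on one side of both comparisons. SCe organoids alone were grown with CHIR 99021 and valproic acid, so genotype and medium cannot be told apart here. *Phgdh*, *Psat1*, *Psph*, *Shmt2*, *Mthfd2*, *Mthfd1l* and *Aldh1l2* were lower in *Rptor* fl/fl organoids, 7 of 9 genes, where 21.8% of 15103 genes tested were lower. *Shmt1* alone was higher, where 21.0% of all genes were. The median of the 9 genes was −1.21, beside −0.0136 for all genes.

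*Phgdh* stood at 224, 281 and 307 CPM in SCe organoids and was 2.66-fold lower in *Rptor* fl/fl organoids (log2 fold change −1.41, SE 0.162, adjusted p = 0.00322). *Psat1* stood at 329, 470.2 and 516 CPM in SCe organoids and was 5.08-fold lower (log2 fold change −2.35, SE 0.312, adjusted p = 0.00477). These calls held in all 12 alternatives. *Psph* stood at 15.8, 32.9 and 39.0 CPM in SCe organoids, with replicate 1 far below the others, and its log2 fold change was −2.06 (SE 0.414, adjusted p = 0.0147). *Aldh1l2* was spread most, at 15.6, 74.1 and 99.6 CPM in SCe organoids, a 18.3-fold difference with a wide interval (log2 fold change −4.19, 95% interval −6.46 to −1.93, adjusted p = 0.0174). In both genes the lowest SCe library was still above both *Rptor* fl/fl lines.

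Of the folate enzymes, *Shmt2* stood at 155, 222 and 245 CPM in SCe organoids (log2 fold change −0.86, SE 0.222, adjusted p = 0.0307). *Mthfd2* stood at 48.8, 70.1 and 77.6 CPM (log2 fold change −1.21, SE 0.224, adjusted p = 0.0116) and *Mthfd1l* at 53.5, 80.1 and 81.3 CPM (log2 fold change −0.88, SE 0.225, adjusted p = 0.0295). For each, every SCe library was above both *Rptor* fl/fl lines. *Shmt1* went the other way, at 81.1, 88.5 and 92.9 CPM in SCe organoids, below both *Rptor* fl/fl lines (log2 fold change 0.41, SE 0.0825, adjusted p = 0.0151). *Mthfd1* stood at 159.8, 152 and 147 CPM, inside the range of the *Rptor* fl/fl lines (log2 fold change 0.04, SE 0.0968, 95% interval −0.21 to 0.28). The number of genes called lower was 7 without SCe replicate 1 and fell to 2, *Phgdh* and *Psat1*, without either *Rptor* fl/fl line, while all 7 log2 fold changes stayed below 0 in the 12 alternatives. Cell type markers moved here too. Of 6 goblet markers 6 were higher in *Rptor* fl/fl organoids (median log2 fold change 3.65), as were 3 of 4 tuft, 3 of 6 epithelial and 2 of 5 enteroendocrine markers, while 2 of 6 Paneth and 3 of 10 proliferation markers were lower. Of 6 stem cell markers 2 were lower and 2 higher, and of 9 enterocyte markers 1 was lower and 1 higher. Their part in the enzyme mRNAs was not tested.

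**Figure D2:**
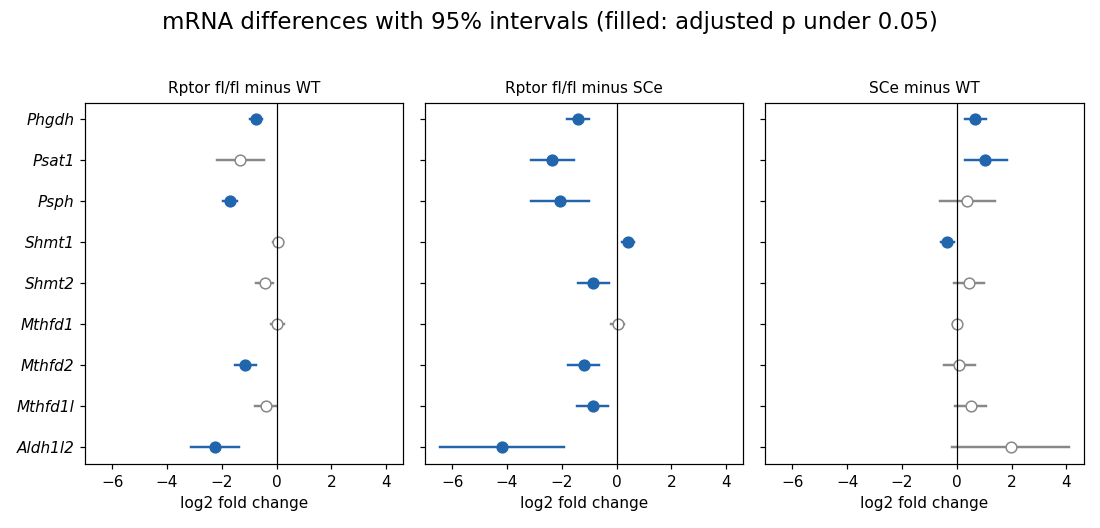
log2 fold changes of mRNA (x axis) of the 9 genes (rows) in 3 comparisons of organoids, with 95% intervals. Filled points passed an adjusted p of 0.05. The serine synthesis and mitochondrial enzymes lie left of 0 in both comparisons with *Rptor* fl/fl, and the interval of *Aldh1l2* against SCe organoids is the widest.

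SCe against WT organoids share a genotype and differ by the medium. *Phgdh* and *Psat1* were higher in SCe organoids by 1.6-fold and 2.08-fold (log2 fold changes 0.68, SE 0.154, adjusted p = 0.022, and 1.05, SE 0.298, adjusted p = 0.0411). That is 2 of 9 genes, where 22.4% of 14925 genes were higher, and *Shmt1* was lower (log2 fold change −0.34, SE 0.0913, adjusted p = 0.0354), where 19.9% of all genes were. Neither share exceeds the background. The other 6 genes were not called. *Aldh1l2* had a log2 fold change of 1.97 with a 95% interval from −0.16 to 4.10 (adjusted p = 0.115), and one SCe library was between the WT lines. *Mthfd1* had 0.01 and *Mthfd2* 0.10. Cell type markers differed as well. Of 6 goblet markers 5 were lower in SCe organoids (median log2 fold change −3.07), as were 4 of 5 enteroendocrine and 3 of 6 epithelial markers. Of 4 tuft markers 2 were lower and 1 higher. Of 6 stem cell markers 2 were lower and 0 higher (median 0.05). Their sum was 840.1 to 1638 CPM in SCe and 3581 to 5147 CPM in WT. The part of cell types in the enzyme mRNAs was not tested.

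SCe replicate 1 decided much of this comparison. Without it 6 genes were called higher, *Psph* (0.68, adjusted p = 0.00272), *Shmt2* (0.61, adjusted p = 0.00261), *Mthfd1l* (0.68, adjusted p = 0.00196) and *Aldh1l2* (2.42, adjusted p = 0.00152) beside *Phgdh* and *Psat1*, and 0 were called higher without any other library of either group. Of the 3 SCe libraries, replicate 1 had the lowest level of 8 genes and the highest of *Mthfd1*. Its sums of enterocyte and Paneth marker mRNA were lowest and its sum of stem cell marker mRNA was highest. The part of those marker differences in the enzyme mRNAs was not tested.

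Footprints of the organoid groups were compared next, where genotype and medium again cannot be told apart. Of the 9 genes 0 were called lower and 0 higher in the *Rptor*-labelled libraries against SCe organoids in edgeR, where 9.84% and 6.63% of 10817 genes were, and 1 had an unadjusted p under 0.05. DESeq2 also called 0. The median log2 fold change of the 9 genes was 0.15, beside −0.023 for all genes.

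*Phgdh* had 502, 721 and 756 CPM of footprints in SCe organoids and 553, 532 and 523 CPM in the *Rptor*-labelled libraries, all 3 of which lay within the SCe range (log2 fold change −0.30, SE 0.196, 95% interval −0.75 to 0.14). *Psat1* had 433, 303 and 539 CPM in SCe and 292, 381 and 344 CPM in the *Rptor*-labelled libraries, which overlapped (log2 fold change −0.33, 95% interval −0.86 to 0.20). *Psph* had 35.8, 30.8 and 39.3 CPM in SCe and 44.9, 43.0 and 41.9 CPM in the *Rptor*-labelled libraries. Here the groups did not overlap, yet the log2 fold change of 0.28 (SE 0.179, adjusted p = 0.325) was not called. The SCe libraries held 66, 36 and 170 *Psph* footprints, which limits the precision of these values.

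**Figure D3:**
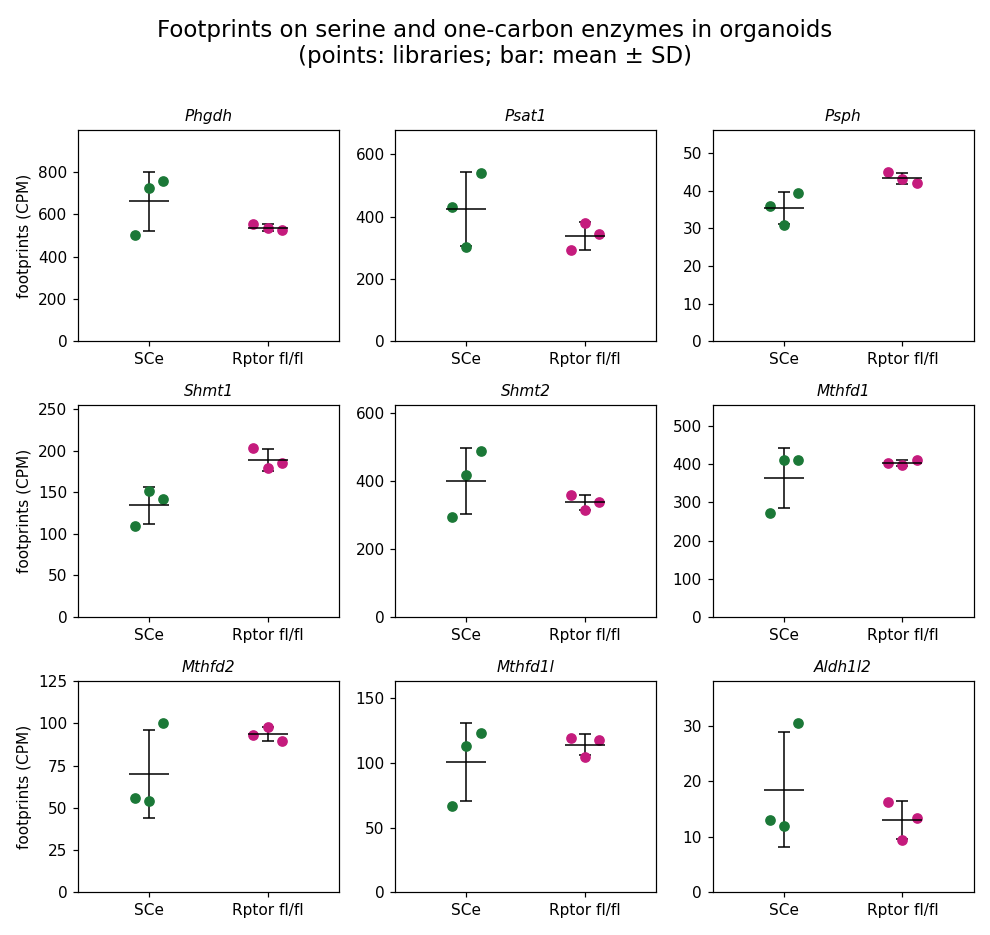
Footprints (CPM, linear axes from 0) on the 9 genes in SCe organoids and in the *Rptor*-labelled libraries. Points are libraries and bars the mean ± SD. SCe points are spread more widely, and the groups overlap except for *Psph* and *Shmt1*.

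*Shmt1* had 109, 152 and 142 CPM in SCe and 204, 179 and 185 CPM in the *Rptor*-labelled libraries, all above the SCe libraries, with a log2 fold change of 0.49 (SE 0.178, adjusted p = 0.0932). *Shmt2* had 295, 417 and 489 CPM in SCe and 360.1, 315 and 338 CPM in the *Rptor*-labelled libraries (log2 fold change −0.25, 95% interval −0.73 to 0.23). Within a library the per-length ratio of *Shmt2* to *Shmt1* footprints was 2.57, 2.60 and 3.27 in SCe and 1.68, 1.66 and 1.71 in the *Rptor*-labelled libraries. This ratio, in which library scaling cancels, was lower in each of the latter than in every SCe library. The corresponding mRNA ratios were 2.12, 2.70 and 2.85 in SCe and 1.19 and 1.01 in *Rptor* fl/fl organoids.

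*Mthfd1* had 273, 409.8 and 410 CPM of footprints in SCe and 402, 397 and 411 CPM in the *Rptor*-labelled libraries (log2 fold change 0.15, 95% interval −0.30 to 0.60). *Mthfd2* had 55.9, 53.9 and 100.1 CPM in SCe and 92.9, 98.0 and 89.8 CPM in the *Rptor*-labelled libraries. SCe replicate 3 was above the other group and replicates 1 and 2 below it (log2 fold change 0.39, SE 0.246, adjusted p = 0.312). *Mthfd1l* had 66.7, 113 and 123 CPM in SCe and 119.8, 105 and 118 CPM in the *Rptor*-labelled libraries (log2 fold change 0.17). *Aldh1l2* had 24, 14 and 132 footprints in SCe, or 13.0, 12.0 and 30.5 CPM, and 16.3, 9.37 and 13.4 CPM in the *Rptor*-labelled libraries (log2 fold change −0.60, 95% interval −1.47 to 0.27). Without SCe replicate 1 *Phgdh* (−0.46, adjusted p = 0.015) and *Shmt2* (−0.43, adjusted p = 0.0396) were called lower, and without SCe replicate 3 *Mthfd2* was called higher (0.78, adjusted p = 0.0155).

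Footprints per mRNA, the translation efficiency, were tested as the interaction of assay and group. In the *Rptor*-labelled libraries, *Phgdh*, *Psat1*, *Psph* and *Mthfd2* had more footprints per mRNA than in SCe organoids, by 2.25-fold to 5.26-fold. That is 4 of 9 genes, where 1.12% of 10747 genes tested were higher, and 0 were lower, where 1.81% of all were (6 of the 9 had an unadjusted p under 0.05, each above 0). The median of the 9 genes was 1.17, beside −0.0308 for all genes. All 4 had lower mRNA in *Rptor* fl/fl organoids against SCe, and none was called in footprints. The efficiency test used the same mRNA counts as that mRNA comparison, so the 2 results are not independent.

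The log2 change in efficiency was 1.17 for *Phgdh* (SE 0.273, adjusted p = 0.0473), 2.08 for *Psat1* (SE 0.398, adjusted p = 0.0261) and 2.39 for *Psph* (SE 0.427, adjusted p = 0.0205). For *Mthfd2* it was 1.66 (SE 0.364, adjusted p = 0.0404). In terms of levels per length, a unit of *Psph* mRNA went with 2.82 units of footprints in SCe organoids and 15.3 in the *Rptor*-labelled samples, and *Psat1* mRNA with 2.07 and 9.04. The corresponding levels were 2.56 and 2.83 for *Shmt1*, and 2.62 and 2.85 for *Mthfd1*. *Aldh1l2* had the largest estimate, 3.63, with an SE of 0.903 (adjusted p = 0.058). *Mthfd1l* (1.12, adjusted p = 0.108) and *Shmt2* (0.67, adjusted p = 0.275) were not called. *Shmt1* (0.14, 95% interval −0.31 to 0.60) and *Mthfd1* (0.17, 95% interval −0.36 to 0.69) had intervals around 0.

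**Figure D4:**
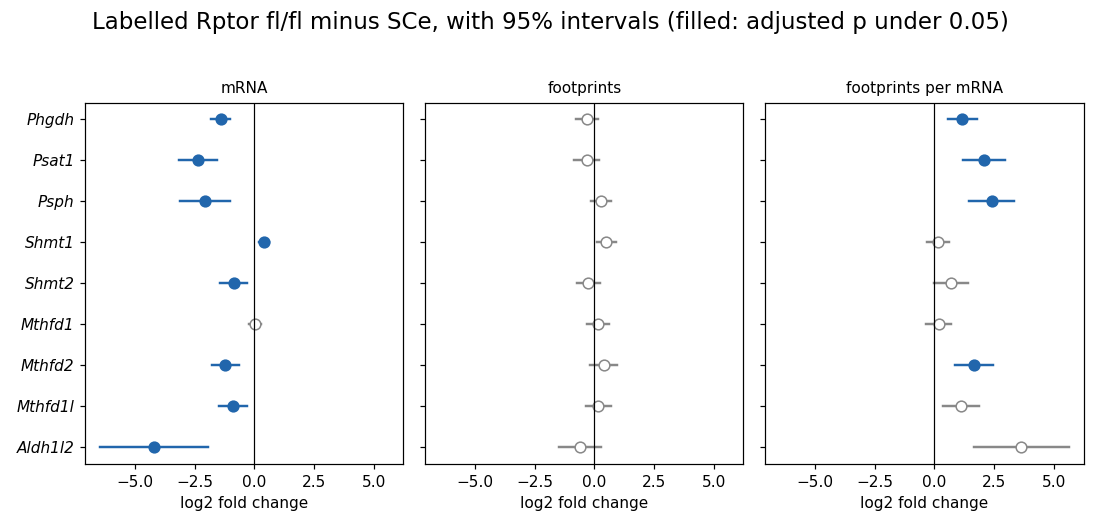
log2 fold changes (x axis) of mRNA, footprints and footprints per mRNA of the 9 genes (rows) between *Rptor*-labelled samples and SCe organoids, with 95% intervals. Filled points passed an adjusted p of 0.05. No point is filled in footprints, where the estimates run from −0.60 for *Aldh1l2* to 0.49 for *Shmt1*, and the 7 genes with filled points left of 0 in mRNA lie right of 0 in footprints per mRNA, 4 of them filled.

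Several measurements bear on these 4 calls. *Rptor* itself had a log2 change in efficiency of 1.43 (SE 0.39, adjusted p = 0.0777), since its mRNA was lower while its footprints were not called. The mRNA and the footprints came from different genotypes, as the *Rptor* fl/fl organoids of RNA-seq lacked RPL22.HA. Only SCe organoids were grown with CHIR 99021 and valproic acid, so genotype and medium cannot be told apart in the efficiencies either. Stem cell markers summed to 817 and 2056 CPM of mRNA in *Rptor* fl/fl lines and to 5002 to 5333 CPM of footprints in the *Rptor*-labelled libraries, against 840.1 to 1638 CPM and 1557 to 3063 CPM in SCe organoids. The footprint sum does not describe each marker. Of the 6 markers 3 were lower and 1 higher in footprints (median log2 fold change −0.91), and *Lgr5* was lower (−1.23, adjusted p = 0.00668). Whether a difference in the state of those cultures sets the efficiencies was not tested. The replicate block left 0 of the 4 calls, and the offset for effective length left 1 gene called. The calls also rest on single libraries. Of the 11 leave-one-out fits, 0 genes were called without either *Rptor* fl/fl RNA-seq line, without SCe RNA-seq replicate 2, or without replicate 1 or 3 of the *Rptor*-labelled libraries, and 1 was called without SCe RNA-seq replicate 3 or replicate 2 of the *Rptor*-labelled libraries. Without SCe RNA-seq replicate 1 there were 6, and without SCe footprint replicate 2 there were 2. The estimates of the 4 genes stayed above 0 in all 17 alternatives, from 1.00 to 2.69. Of these alternatives, *Psph* was called in 11, *Psat1* in 8, *Mthfd2* in 7 and *Phgdh* in 6.

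In mice, footprints on *Shmt1* and *Mthfd1* were lower. *Shmt1* was 1.83-fold and *Mthfd1* 1.32-fold lower in *Rptor* fl/fl mice than in WT mice. These were 2 of the 8 genes tested, where 5.97% of 11515 genes were lower, and 0 were higher, where 7.47% of all were. Of the 8 genes 5 had an unadjusted p under 0.05, each with a log2 fold change below 0. The median of the 8 genes was −0.37, beside −0.0153 for all genes.

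*Shmt1* had 50.6, 60.3 and 57.2 CPM in WT mice and 36.6, 32.3 and 26.7 CPM in *Rptor* fl/fl mice. All 3 *Rptor* fl/fl mice were below all WT mice (log2 fold change −0.87, SE 0.137, adjusted p = 0.000522), and of 12 alternatives only an offset for effective length lost the call (adjusted p = 0.0528). Mouse footprints were counted on sequences that include the 5′ region of the transcript. In organoids, where these regions were counted apart, *Shmt1* had 151, 210 and 232 footprints there in the *Rptor*-labelled libraries beside 1227, 1124 and 1518 on the coding sequence, and the part of the 5′ region in the mouse value was not tested. *Mthfd1* had 119, 102 and 116 CPM in WT mice and 78.7, 91.0 and 83.6 CPM in *Rptor* fl/fl mice, again without overlap (log2 fold change −0.40, SE 0.095, adjusted p = 0.0104). It was not called without WT mouse 3 (adjusted p = 0.0955) or with the length offset (adjusted p = 0.0511).

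*Phgdh* had 35.4, 29.2 and 33.2 CPM in WT mice and 28.7, 17.4 and 21.3 CPM in *Rptor* fl/fl mice. The groups did not overlap, and the log2 fold change of −0.54 (SE 0.174, adjusted p = 0.0545) just missed the threshold. It passed in 3 of 12 alternatives, among them without *Rptor* fl/fl mouse 1 (−0.69, adjusted p = 0.00445). *Shmt2* had 64.5, 42.5 and 47.7 CPM in WT and 40.5, 39.9 and 37.0 CPM in *Rptor* fl/fl mice (log2 fold change −0.33, SE 0.137, adjusted p = 0.133). These too did not overlap, by a narrow margin, and were not called. *Mthfd2* had 8.85, 9.13 and 13.7 CPM in WT and 10.2, 7.31 and 6.70 CPM in *Rptor* fl/fl mice (log2 fold change −0.57, SE 0.249, adjusted p = 0.151).

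**Figure D5:**
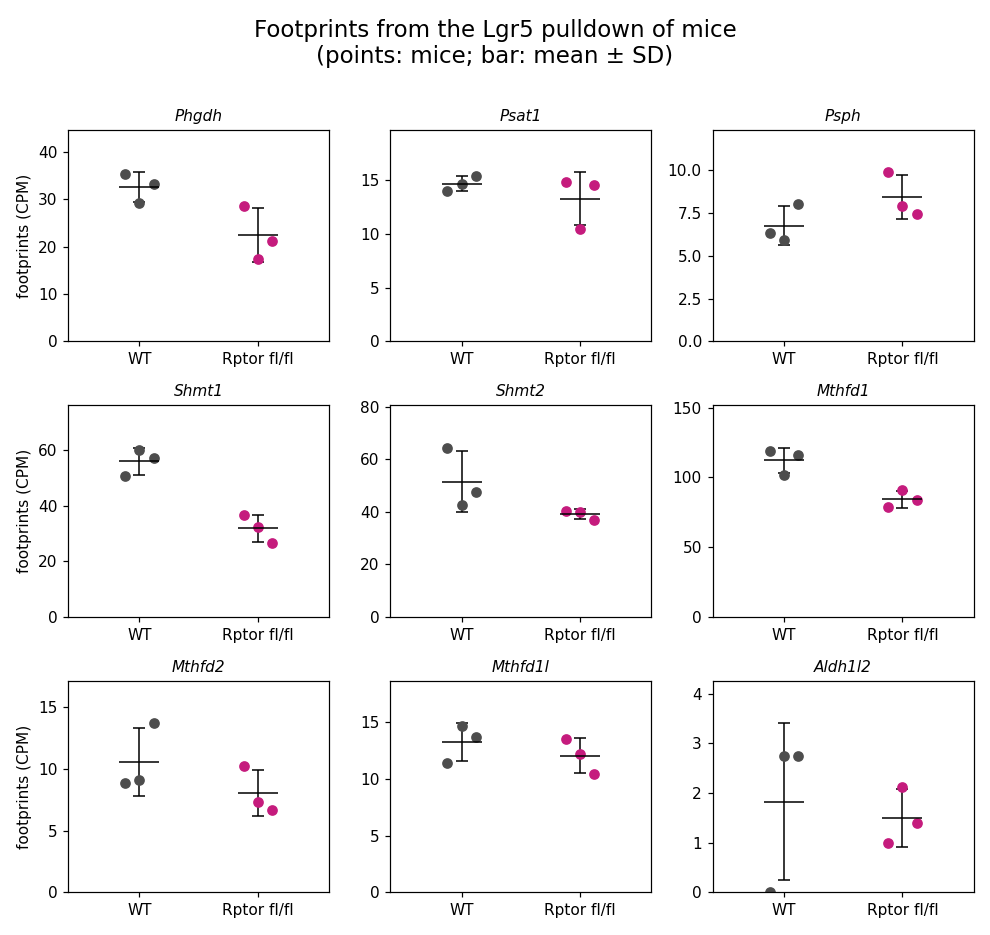
Footprints (CPM, linear axes from 0) on the 9 genes in the pulldown from WT and *Rptor* fl/fl mice. Points are mice and bars the mean ± SD. The groups do not overlap for *Phgdh*, *Shmt1*, *Shmt2* and *Mthfd1*, and *Aldh1l2* is near 0 in every mouse.

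The other genes were close between mice. *Psat1* had 13.9, 14.6 and 15.3 CPM in WT and 14.8, 10.4 and 14.5 CPM in *Rptor* fl/fl mice (log2 fold change −0.15, 95% interval −0.56 to 0.26). *Psph* had 6.32, 5.94 and 8.04 CPM in WT and 9.88, 7.92 and 7.45 CPM in *Rptor* fl/fl mice (log2 fold change 0.20, 95% interval −0.34 to 0.73), from no more than 59 footprints in any mouse. *Mthfd1l* had 11.4, 14.6 and 13.7 CPM in WT and 13.5, 12.2 and 10.4 CPM in *Rptor* fl/fl mice (log2 fold change −0.22). *Aldh1l2* had 0, 6 and 15 footprints in WT and 3, 7 and 11 in *Rptor* fl/fl mice and was too low to test. The 0 of WT mouse 1 allows a level of up to 3.79 CPM, the worth of 3 counts, which covers counting error only. Per length, *Mthfd1* had the highest mean in both groups of mice, at 37.4 ± 2.43 in WT and 28.0 ± 2.04 in *Rptor* fl/fl mice (RPKM, SD, n = 3). In organoid footprints *Phgdh* had the highest mean (400.5 ± 83.5 in SCe, 325 ± 9.36 in the *Rptor*-labelled libraries). The range of *Phgdh* overlapped that of *Psat1* in both organoid groups, and that of *Mthfd1* overlapped *Shmt1* in WT mice. In WT mice *Phgdh* held place 4 at 18.2 ± 1.75. These scales were set within each assay, and the tissue, the tag's driver and the counted sequences differ, so that only the order is compared.

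Other cell types moved in the same mice. Of 10 proliferation markers 5 were lower, and their sum was 889.9 to 989.8 CPM in WT and 722 to 842 CPM in *Rptor* fl/fl mice. Of 5 stroma markers 4 were higher, with sums of 869.8 to 933 CPM and 1102 to 1307 CPM, and of 6 goblet markers 3 were higher. Of 5 Paneth markers tested 3 were lower, with sums of 8735 to 9586 CPM in WT and 4940 to 8477 CPM in *Rptor* fl/fl mice. Of 5 stem cell markers tested 2 were lower, with sums of 554 to 580.1 CPM and 349 to 534 CPM, which did not overlap. Of 9 enterocyte markers 3 were higher and 1 lower, with sums of 56986 to 58598 CPM and 61854 to 66686 CPM. Pancreatic acinar markers, which a stem cell pulldown should lack, summed to 1461 to 3576 CPM in WT and 2788 to 3833 CPM in *Rptor* fl/fl mice, and immune markers to 3752 to 3850.3 CPM and 3478 to 3854 CPM. *Lgr5* itself had 11.4, 7.76 and 8.77 CPM in WT and 45.8, 8.53 and 6.32 CPM in *Rptor* fl/fl mice. The part of other cells in the enzyme footprints was not tested.

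The pathways around these enzymes were read from lists of genes. Among 16 genes of folate uptake, activation and interconversion, 13 were tested in RNA-seq of *Rptor* fl/fl against WT. Of these 2 were lower and 2 higher (median −0.19), where 11.0% and 11.6% of all genes were. *Aldh1l1*, the cytosolic counterpart of *Aldh1l2*, fell (log2 fold change −1.56, adjusted p = 0.00891). *Fpgs*, which adds the glutamate tail that keeps folate in cells, rose (0.86, adjusted p = 0.0165), and *Ggh*, which removes it, rose too (0.57, adjusted p = 0.0417). Against SCe organoids 2 of 13 were lower and 4 higher, where 21.8% and 21.0% of all genes were. Here *Aldh1l1* fell (−1.45, adjusted p = 0.00211) and so did *Ggh* (−1.57, adjusted p = 0.00284), while the mitochondrial folate carrier *Slc25a32* rose (0.69, adjusted p = 0.00336). In footprints *Ggh* was the only gene of this list called in organoids (−2.32, adjusted p = 0.00142), where 9.84% of all genes were lower. In efficiency only *Aldh1l1* was called (1.71, adjusted p = 0.00682), in the same direction as the 4 enzymes above, where 1.12% of all genes were higher. In mice only *Mthfs* was called (2.33, adjusted p = 0.00866), where 7.47% of all genes were higher.

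The glycine cleavage system feeds mitochondrial folate from glycine. Of its 4 genes, 0 were called in *Rptor* fl/fl mRNA against WT or against SCe by edgeR, and 1, *Gcsh* against WT, had an unadjusted p under 0.05 (log2 fold change −0.20, edgeR adjusted p = 0.067). Among 13 genes of the methionine cycle and transsulfuration, 3 of 11 tested were lower and 1 higher against WT, where 11.0% and 11.6% of all genes were. *Ahcy*, which clears S-adenosylhomocysteine, fell (−0.65, adjusted p = 0.0118), as did *Cth*, which makes cysteine from cystathionine (−1.07, adjusted p = 0.0173), and *Mtrr*, which reactivates methionine synthase, rose (0.77, adjusted p = 0.0171). In mice 2 of 7 were lower, where 5.97% of all genes were. These were *Ahcy* (−0.55, adjusted p = 0.000368) and *Mat2a* (−0.36, adjusted p = 0.0439), the synthetase of S-adenosylmethionine. *Cbs*, which joins serine to homocysteine, was lower in *Rptor* fl/fl against SCe mRNA (−2.56, adjusted p = 0.00174) and in footprints (−1.69, adjusted p = 0.00358). Among 13 genes of serine use and transport, 1 of 11 was lower and 2 higher against WT mRNA, where 11.0% and 11.6% of all genes were. *Sfxn3*, a mitochondrial serine carrier, rose (0.79, adjusted p = 0.018), as did *Sptlc2*, a subunit of serine palmitoyltransferase (0.29, adjusted p = 0.0332). The serine carrier *Slc1a4* fell (−0.82, adjusted p = 0.0332). In mice *Sptlc2* rose (0.37, adjusted p = 0.0096) and *Sdsl*, a serine dehydratase-like enzyme, fell (−0.53, adjusted p = 0.0454). Against SCe 3 of 11 were lower and 0 higher, where 21.8% and 21.0% of all genes were. The carrier *Slc1a5* fell against SCe in mRNA (−0.66, adjusted p = 0.00439) and in footprints (−1.02, adjusted p = 0.0182).

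The list of *Atf4* and genes commonly listed as its targets, without the 9 enzymes, had 12 of 19 genes tested lower and 0 higher in *Rptor* fl/fl against WT mRNA (median −0.63), where 11.0% and 11.6% of all genes were. *Ddit4*, an inhibitor of mTORC1, fell by 1.73 and *Slc7a11*, the cystine carrier, by 2.69 on the log2 scale (adjusted p = 0.00565 for each). *Atf5* fell by 1.21 and the mitochondrial *Pck2* by 1.35 (adjusted p = 0.00891 for each). Against SCe organoids the counts were near the background of 21.8% lower and 21.0% higher, with 5 of 19 lower, *Slc7a11* (−4.01, adjusted p = 0.00179) among them, and 5 higher, *Cebpg* (1.70, adjusted p = 0.00105) and *Cebpb* (1.73, adjusted p = 0.00202) among them. In footprints 1 of 18 was lower and 5 were higher in the *Rptor*-labelled libraries, where 9.84% and 6.63% of all genes were. The footprints on *Atf4* rose (1.49, adjusted p = 0.009). In efficiency 3 of 17 were higher, where 1.12% of all genes were. These were *Slc7a11* (3.93, adjusted p = 0.00772), *Trib3* (2.62, adjusted p = 0.00864) and *Pck2* (1.75, adjusted p = 0.0406). In mice 3 of 15 were lower, where 5.97% of all genes were. They were *Nupr1* (−0.95, adjusted p = 0.00442), *Trib3* (−0.94, adjusted p = 0.0249) and *Pck2* (−0.42, adjusted p = 0.0488).

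The pattern of each gene was compared with that of 9809 genes tested in all 3 assays, as Pearson's r of log2 CPM centred within each assay over the 19 lines, libraries and mice. *Aldh1l2* was not tested in mice and is left out. *Phgdh* was the gene most like *Shmt2* (r = 0.894), followed by *Mars* (r = 0.888) and *C530008M17Rik* (r = 0.879). *Psat1* was most like *Gars* (r = 0.93), *Clic4* (r = 0.87) and *Espn* (r = 0.867), and *Phgdh* like *Morc4* (r = 0.913), *Sept6* (r = 0.908) and *Nav1* (r = 0.906). *Psph* was most like *Pgk1* (r = 0.857), *Lyz1* (r = 0.851) and *Mical1* (r = 0.851). *Mthfd2* was most like *Hsp90aa1* (r = 0.912), *Gmnn* (r = 0.85) and *Cct5* (r = 0.845), and *Mthfd1l* like *Prc1* (r = 0.894), *Ints13* (r = 0.884) and *Srsf6* (r = 0.857). *Shmt1* was most like *Rcc2* (r = 0.931), *Zfc3h1* (r = 0.907) and *Auts2* (r = 0.888), and *Mthfd1* like *Dnmt1* (r = 0.908), *Hmgxb3* (r = 0.89) and *Gcn1l1* (r = 0.89). Among the enzymes themselves, *Shmt1* and *Mthfd1* had r = 0.702 with each other, while *Phgdh* and *Psat1* had r = 0.856 and *Psat1* and *Shmt1* r = −0.317. The points share groups and libraries, so these values describe these samples.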

How the data were processed

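RNA-seq, organoid Ribo-seq and mouse Ribo-seq libraries were analysed (23 in all). The authors trimmed footprint reads with cutadapt 1.18, removed rRNA, and quantified all libraries with Salmon 1.1.0 on protein-coding transcripts of GENCODE vM21, for footprints with UTRs trimmed, per the methods, and the deposited files give estimated counts per sequence. Estimated counts, the tested values, were summed per gene and over technical libraries and rounded to whole numbers. The deposited TPM values and effective lengths entered only the length offset, since the effective length of footprint files assumes longer fragments. Entries for 5′ regions were left out of organoid footprints. Tests used edgeR 4.0.16 in R 4.3.3 (filterByExpr, TMM, quasi-likelihood), fitted on the groups compared, and the assay-by-group interaction gave translation efficiency. The standard error is the log2 fold change divided by the square root of F. The code was tested on simulated data. Levels per length divide by the sequence length.

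Alternatives were DESeq2 1.42.0, RLE factors, no count filter, the length offset, a replicate block, technical libraries kept apart, all RNA-seq groups in one fit, 5′ entries added, library sizes without the 10 top genes, and leaving out each replicate. The 9 genes and the gene lists were chosen with earlier results of these data known. Named are all 9 genes, up to 4 genes per list (1 is not reported here) and comparison with the smallest adjusted p, and the 3 genes most like each enzyme. *Ddit3* has 2 entries, of which the more abundant was used. Motifs other than TGATGNAA were added after values had been seen. The authors' own table of efficiency ratios, log2 changes and p-values was not used.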

Additional observations from a re-analysis of the deposited data

Results flagged for a closer look

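For *Psph* and *Shmt1*, every *Rptor* fl/fl sample lay on one side of the WT mean in organoid mRNA and on the other side in mouse footprints. The mean log2 CPM difference of *Psph* was −1.69 in organoid mRNA and 0.27 in mouse footprints, the latter from 5 to 59 footprints per mouse. The mouse groups overlapped for *Psph*, as WT mouse 3 (8.04 CPM) was above *Rptor* fl/fl mice 2 and 3 (7.92 and 7.45 CPM). For *Shmt1* it was 0.04 in organoid mRNA, within the spread of the WT lines, and −0.83 in mouse footprints. The difference between organoids and mice was not tested. The assay, the driver of Cre, the counted sequences and, per the methods, the time after tamoxifen differ between them.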

How the results depend on the processing

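Of the comparisons of single genes under the alternatives, 551 kept their direction and side of the threshold, 78 lost and 28 gained a call, and 15 reversed. The replicate numbers did not meet the rule for pairing, as same-numbered samples correlated at −0.044 to 0.034 in Ribo-seq and, with only 2 pairs, at 0.144 to 0.303 in RNA-seq. A replicate block gave 7 genes lower in RNA-seq of *Rptor* fl/fl against WT, 4 lower and 0 higher against SCe, 0 lower and 0 higher in SCe against WT, and 0 higher in efficiency. Technical libraries as separate samples gave 7 lower against WT and 5 higher in SCe against WT. The length offset gave 0 lower in SCe against WT, 1 higher in efficiency and 0 lower in mice. Leaving out one replicate gave 3 to 5 lower against WT, 2 to 7 lower and 0 to 1 higher against SCe, 0 to 1 lower and 0 to 6 higher in SCe against WT, 0 to 2 lower and 0 to 1 higher in organoid footprints, 0 to 6 higher in efficiency and 1 to 3 lower in mice. A lone sample was assumed to vary like the other group.

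The 15 reversals were of log2 fold changes, and the reversed values lay between −0.0966 and 0.0602. In *Rptor* fl/fl against WT, leaving out one replicate gave −0.0403 to 0.124 for *Shmt1* and −0.0966 to 0.15 for *Mthfd1*. Against SCe it gave −0.0783 to 0.156 for *Mthfd1*. In SCe against WT it gave −0.0248 to 0.0371 for *Mthfd1*, which was −0.0074 in DESeq2, −0.0082 without the filter and −0.0107 in the joint fit, and −0.0666 to 0.269 for *Mthfd2*, which was −0.0542 with the replicate block. In organoid footprints it gave −0.0213 to 0.254 for *Mthfd1*, −0.056 to 0.372 for *Mthfd1l* and −0.842 to 0.0602 for *Aldh1l2*, and in efficiency −0.0071 to 0.279 for *Mthfd1*. The causes were not tested. Depth limits *Psph* and *Aldh1l2* footprints most.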

Other observations

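*Shmt2* footprints were assigned to the 2 transcripts Shmt2-201 and Shmt2-206, which differ by 9 internal bases and in their ends, so that the split rests on few footprints. In organoids, Shmt2-206 was assigned 179, 221 and 427 footprints beside 1988, 1761 and 2348 on Shmt2-201 in the *Rptor*-labelled libraries, and 20, 0 and 26 beside 523, 488 and 2090 in SCe libraries. In mice it was assigned 0, 95 and 53 in *Rptor* fl/fl and 0, 0 and 0 in WT mice, beside 123, 36 and 240 and 51, 93 and 261 on Shmt2-201. In RNA-seq, Shmt2-206 was assigned 107 to 257 reads per technical library in *Rptor* fl/fl lines, 182 to 287 in WT lines and 242 to 1303 in SCe libraries. The gene totals used above sum both transcripts. This split was noticed after its values had been seen and was not tested.

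*Psat1* mRNA was split almost evenly between 2 transcripts, with 51.2% of reads on ENSMUST00000025542.9 in WT, 55.6% in SCe and 56.0% in *Rptor* fl/fl organoids.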
